A study of Mus musculus with 10 samples.

Results

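The endothelin, Dlx and Hand genes that pattern the lower jaw were read in neural crest cells of mouse embryos with an activated p53. The 10 genes were taken by name, and all 10 were found among the 49671 genes of the count table: the ligand gene Edn1, its receptor gene Ednra, the transcription factor genes Dlx1, Dlx2, Dlx3, Dlx4, Dlx5, Dlx6 and Hand2, and the homeobox gene Gsc. Each of 10 libraries was made from polyadenylated RNA of the GFP-positive cells of a single embryo at embryonic day 10.5, on a mixed 129/Sv-C57BL/6 background. The 5 p53activation embryos (genotype Wnt1Cre;R26mTmG;p53LSL-25,26/+) carried, beside a normal Trp53 allele, an engineered allele from which Cre releases a stabilised p53. The 5 WT embryos were littermates of the genotype Wnt1Cre;R26mTmG;p53+/+, so both groups carried the Wnt1-Cre driver and the reporter that turns recombined cells green. Wnt1-Cre acts in the dorsal neural tube and marks neural crest of every axial level and of every fate, not jaw mesenchyme alone. In such bulk RNA, fewer cells that use a gene and less of its RNA per cell cannot be told apart.

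In the pharyngeal arches, endothelin-1 is made by epithelium and by the mesoderm of the arch core. It is received through the endothelin A receptor on cranial neural crest cells, where it switches on Dlx5 and Dlx6 in the ventral part of the arch, and these in turn act on Hand2, Dlx3, Dlx4 and Gsc. Dlx1 and Dlx2 are used along the whole arch, upper jaw included, and the nested use of the Dlx genes gives upper and lower jaw their different skeletons. Loss of the ligand, of the receptor or of both Dlx5 and Dlx6 turns the lower jaw of the mouse towards an upper jaw form.

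The engineered state was visible in every embryo. Trp53 had 29.1 ± 2.99 CPM in p53activation and 18.2 ± 5.12 CPM in WT libraries (CPM, reads of a gene scaled to a common library total after TMM scaling; SD, n = 5 each; log2 fold change 0.67, edgeR quasi-likelihood adjusted p = 0.0264). That call was lost without p53activation replicate 4, WT replicate 2 or WT replicate 3 (adjusted p up to 0.0716), and without WT replicates 1 and 2 together (0.107). The p53 target Cdkn1a had 105 ± 11.9 CPM in p53activation and 7.93 ± 1.59 CPM in WT libraries. Libraries held 12368058 to 28379562 counts. WT replicates 1 and 2 stood apart in the ratio of the embryonic globin genes Hbb-y and Hbb-bh1, which was 4.97 and 2.69 there and 1.59 to 2.08 in the other 8 libraries. Values of the members and lists that rest on these 2 libraries are given with and without them.

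None of the 10 genes passed the test in the comparison of p53activation with WT. The 9 with enough counts to be tested gave 0 calls in edgeR at an adjusted p under 0.05, where 7.23% of all 14528 tested genes were called, 4.49% higher and 2.74% lower. Gsc was the nearest to a call and was lower, and Dlx2, Dlx3 and Dlx1 followed with positive values. These 4 genes had an unadjusted p under 0.05, as did 22.6% of all tested genes. With limma-voom no member was called, and with DESeq2, which called 9.48% of all genes with an adjusted p, 2 members were, Dlx2 higher and Gsc lower. For every one of the 9 genes the p53activation and WT libraries overlapped, against 8.07% of tested genes whose groups did not. The log2 fold change was positive for 6 and negative for 3 of the 9, with a median of 0.34, against a median of -0.01 and a positive share of 48.6% over all tested genes. Without WT replicates 1 and 2 the median was 0.43 and the signs were again 6 and 3. Edn1 was too low to be tested, and a gene passes the filter on low counts through the group in which it is high.

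**Figure D1:**
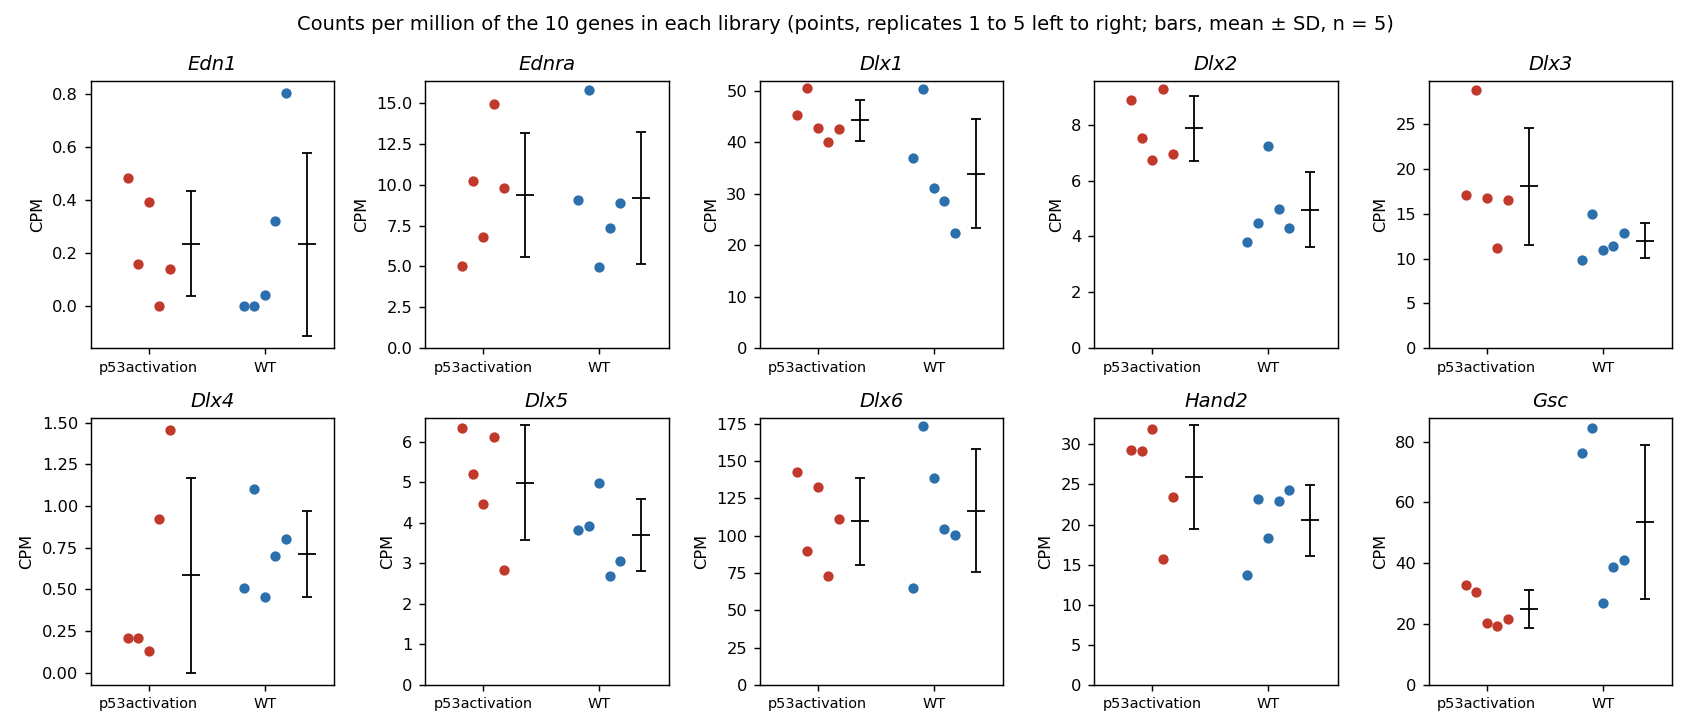
CPM (y axis, linear, its own scale in each panel) of the 10 genes in p53activation (red) and WT (blue) libraries, with replicates 1 to 5 from left to right and the mean ± SD of 5 libraries as bars. The Gsc panel has WT replicates 1 and 2 at 76.4 and 84.5 CPM above all other libraries, and in the Dlx2 panel WT replicate 3 is the only WT library among the p53activation values.

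Edn1 and Ednra are the ligand and receptor genes that start the pathway. Edn1 (ENSMUSG00000021367) lies on chromosome 13 from 42301476 to 42307990 on the plus strand (GRCm38, as all positions). Its reads numbered 7, 3, 6, 0 and 2 in p53activation replicates 1 to 5 and 0, 0, 1, 5 and 11 in WT replicates 1 to 5. The sums were 18 and 17 counts, and single libraries of both groups lay at 0. A count of 0 allows up to 3 counts, which is 0.0988 CPM in p53activation replicate 4, 0.171 CPM in WT replicate 1 and 0.236 CPM in WT replicate 2, for counting error only. With no filter on low counts the log2 fold change was 0.01 ± 1.31 (SE, adjusted p = 0.999), an error too wide to tell whether Edn1 differed. Markers of epithelium, where the ligand is made, summed to 48.5 to 138 CPM in p53activation and 86.0 to 203 CPM in WT libraries over 8 genes. All 8 of these markers had a negative log2 fold change and none was called, and none of the 8 was at 0 in all libraries. The part of epithelial RNA in the Edn1 counts was not tested.

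Ednra (ENSMUSG00000031616, chromosome 8 from 77663031 to 77724464, minus strand) encodes the endothelin A receptor, the form used by jaw neural crest. It had 5.02, 10.2, 6.81, 14.9 and 9.78 CPM in p53activation replicates 1 to 5, and 9.10, 15.8, 4.94, 7.34 and 8.89 CPM in WT replicates 1 to 5. Both groups spanned about the same range, with p53activation replicate 4 and WT replicate 2 the highest. Its log2 fold change was 0.04 ± 0.32 (SE, adjusted p = 0.958). The sign turned with the libraries used: the log2 fold change was 0.43 without WT replicates 1 and 2 and -0.29 without the final pair of p53activation replicates, 4 and 5. The B receptor gene Ednrb, which serves melanocyte and enteric precursors, had 31.1 ± 1.83 CPM in p53activation and 34.8 ± 10.1 CPM in WT libraries (log2 fold change -0.17, edgeR adjusted p = 0.592). Ednrb had 52.3 and 32.5 CPM in WT replicates 1 and 2, against 27.2 to 33.4 CPM in the other 8 libraries. Without those 2 WT libraries its log2 fold change was 0.06 (edgeR adjusted p = 0.845).

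The 6 Dlx genes stand in 3 convergent pairs, each pair on its own chromosome, and each protein binds DNA through a homeodomain of 60 residues. Their homeoboxes are shown because counts of near-identical genes could be mixed, and because they let the Dlx genes be read beside Gsc, a homeobox gene of another class. Each homeobox of 180 bases was cut from a GENCODE M21 transcript (GRCm38) on the coding strand, and capitals mark the 18 bases of the recognition helix stretch by which it was found.
Dlx1: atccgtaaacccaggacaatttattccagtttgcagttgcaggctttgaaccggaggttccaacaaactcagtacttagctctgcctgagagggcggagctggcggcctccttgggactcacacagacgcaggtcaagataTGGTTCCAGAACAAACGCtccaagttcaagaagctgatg
Dlx2: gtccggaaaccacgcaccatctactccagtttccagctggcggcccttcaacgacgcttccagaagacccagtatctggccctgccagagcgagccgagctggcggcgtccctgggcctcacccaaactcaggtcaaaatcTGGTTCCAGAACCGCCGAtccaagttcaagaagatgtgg
Dlx3: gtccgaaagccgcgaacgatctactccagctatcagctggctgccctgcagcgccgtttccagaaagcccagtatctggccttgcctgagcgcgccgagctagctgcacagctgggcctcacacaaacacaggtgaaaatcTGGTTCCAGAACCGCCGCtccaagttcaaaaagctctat
Dlx4: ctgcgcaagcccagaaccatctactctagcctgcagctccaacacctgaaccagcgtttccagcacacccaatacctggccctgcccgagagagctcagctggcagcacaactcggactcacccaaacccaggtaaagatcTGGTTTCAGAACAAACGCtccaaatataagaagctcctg
Dlx5: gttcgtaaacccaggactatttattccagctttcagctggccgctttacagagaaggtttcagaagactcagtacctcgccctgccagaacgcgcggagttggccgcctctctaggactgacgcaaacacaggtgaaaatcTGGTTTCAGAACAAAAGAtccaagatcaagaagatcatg
Dlx6: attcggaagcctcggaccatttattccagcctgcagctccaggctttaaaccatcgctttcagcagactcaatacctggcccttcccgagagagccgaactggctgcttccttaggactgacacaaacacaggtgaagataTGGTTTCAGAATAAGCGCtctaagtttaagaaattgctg
Gsc: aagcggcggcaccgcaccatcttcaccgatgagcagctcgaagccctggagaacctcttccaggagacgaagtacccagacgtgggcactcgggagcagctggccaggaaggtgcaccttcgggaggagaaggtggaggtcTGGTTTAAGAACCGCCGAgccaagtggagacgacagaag
Between Dlx genes 66.1% to 81.7% of homeobox bases were identical, and 48.9% to 55.6% between a Dlx gene and Gsc. At the residue level the closest relatives were not the neighbours on the chromosome. Dlx1 and Dlx6 shared 58 of 60 residues and Dlx2 and Dlx5 shared 56, whereas the neighbours Dlx1 and Dlx2 shared 52, Dlx5 and Dlx6 shared 51 and Dlx3 and Dlx4 shared 48. Gsc shared 22 or 23 residues with each Dlx gene. No stretch of 50 bases in a transcript of any member was found in a transcript of another member.

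Dlx1 and Dlx2 are the pair used in both jaws, and Dlx1 was the more abundant. Dlx1 (ENSMUSG00000041911, chromosome 2 from 71528113 to 71533981, plus strand) had 45.4, 50.5, 42.7, 40.1 and 42.6 CPM in p53activation replicates 1 to 5, and 37.0, 50.3, 31.0, 28.5 and 22.4 CPM in WT replicates 1 to 5. WT replicate 2 was the sole WT library within the p53activation range, and the coefficient of variation was 8.92% in p53activation and 31.3% in WT libraries. The log2 fold change was 0.39 ± 0.17 (SE, adjusted p = 0.192). Dlx1 was called higher without WT replicate 2 (0.58, edgeR adjusted p = 0.0341) and without both WT replicates 1 and 2 (0.69 ± 0.13, edgeR adjusted p = 0.00702). In the fit without those 2 libraries 4.36% of all genes were called, 3.07% higher. The antisense gene Dlx1as overlaps 6.21% of the exon length of Dlx1 but had 138 counts over all libraries, against 4104 and 2791 counts of Dlx1 in p53activation and WT libraries.

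Dlx2 (ENSMUSG00000023391, chromosome 2 from 71543408 to 71546754, minus strand) had 8.88, 7.51, 6.74, 9.29 and 6.94 CPM in p53activation replicates 1 to 5, and 3.81, 4.48, 7.23, 4.98 and 4.30 CPM in WT replicates 1 to 5. All WT libraries but replicate 3 lay below every p53activation library. Its level averaged 7.87 ± 1.15 CPM in p53activation and 4.96 ± 1.33 CPM in WT libraries (SD, n = 5 each), which gave a log2 fold change of 0.66 ± 0.21 (SE, adjusted p = 0.0737). Among the 9 genes this was the highest fold change, at 1.58-fold. Dlx2 was called higher without WT replicate 3 (0.85, edgeR adjusted p = 0.0244, in a fit that called 6.94% of all genes) and in DESeq2 (0.66, adjusted p = 0.0448). Those were its only 2 calls in 22 alternatives. Without WT replicates 1 and 2 its log2 fold change was 0.51 (edgeR adjusted p = 0.252). In the authors' deposited table, where 10.8% of genes with an adjusted p were called, its log2 fold change was 0.57 with an adjusted p of 0.0403. At nearly the same unadjusted p, log2 fold changes there were smaller in size for every member than in the DESeq2 fit made here.

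Dlx3 and Dlx4 belong to the most ventral part of the nested Dlx pattern. Dlx3 (ENSMUSG00000001510, chromosome 11 from 95120119 to 95125296, plus strand) had 17.1, 28.9, 16.8, 11.2 and 16.5 CPM in p53activation replicates 1 to 5, and 9.84, 14.9, 11.0, 11.4 and 12.8 CPM in WT replicates 1 to 5. All p53activation libraries but replicate 4 lay above every WT library, and replicate 2 was far above the rest. The means were 18.1 ± 6.52 CPM in p53activation and 12.0 ± 1.96 CPM in WT libraries, a log2 fold change of 0.59 ± 0.21 (SE, adjusted p = 0.107). Without p53activation replicate 4 Dlx3 was called higher (0.73, edgeR adjusted p = 0.0351, 6.46% of all genes called), and without p53activation replicate 2 the log2 fold change was 0.36 (adjusted p = 0.276).

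Dlx4 (ENSMUSG00000020871, chromosome 11 from 95140447 to 95146263, minus strand) was close to the detection limit. It had 3, 4, 2, 28 and 21 counts in p53activation replicates 1 to 5, which is 0.206, 0.210, 0.131, 0.922 and 1.46 CPM. In WT replicates 1 to 5 it had 9, 14, 11, 11 and 11 counts, which is 0.512, 1.10, 0.457, 0.702 and 0.801 CPM. There were 3 p53activation libraries below every WT library and 2 within or above the WT range, and WT counts ran only from 9 to 14. The log2 fold change was -0.25 ± 0.64 (SE, adjusted p = 0.862), and -1.89 without p53activation replicates 4 and 5 (adjusted p = 0.151). The antisense gene Dlx4os, which shares 2.42% of the exon length of Dlx4, was the higher of the 2 at 5.26 ± 2.21 CPM in p53activation and 5.58 ± 2.11 CPM in WT libraries, and without the strand of the reads the Dlx4 counts are uncertain.

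Dlx5 and Dlx6 are switched on by endothelin signalling in the lower jaw, and both loci lie within one stretch of chromosome 6. Whether their RNA in these bulk cells follows that signal was not tested. Dlx5 (ENSMUSG00000029755, from 6877805 to 6882085, minus strand) had 6.33, 5.20, 4.45, 6.12 and 2.84 CPM in p53activation replicates 1 to 5, and 3.81, 3.93, 4.98, 2.68 and 3.06 CPM in WT replicates 1 to 5. The groups overlapped, with 3 p53activation libraries above every WT library and p53activation replicate 5 near the lowest WT value. The log2 fold change was 0.43 ± 0.27 (SE, adjusted p = 0.367).

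Dlx6 (ENSMUSG00000029754, from 6863334 to 6868568, plus strand) had 143, 89.4, 132, 72.8 and 111 CPM in p53activation replicates 1 to 5, and 65.2, 174, 139, 105 and 101 CPM in WT replicates 1 to 5. The lowest and the highest of the 10 values were both WT, and the p53activation libraries lay between them. Its log2 fold change was -0.09 ± 0.26 (SE, adjusted p = 0.883), and it was 0.10 without WT replicate 2, 0.03 without p53activation replicate 4 and -0.24 without WT replicate 1. Dlx6 had 9609 counts in p53activation and 9722 counts in WT libraries, where Dlx5 had 486 counts in p53activation and 321 counts in WT libraries. Of 2350 stretches of 50 bases in Dlx6 transcripts, 143 (6.09%) also stood in transcripts of 596 other genes, so some Dlx6 counts could come from elsewhere. Dlx6os1, an antisense gene with no exon shared with Dlx6, had 7.02 ± 1.11 CPM in p53activation and 5.77 ± 1.16 CPM in WT libraries (log2 fold change 0.28, edgeR adjusted p = 0.454).

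Hand2 encodes a basic helix-loop-helix factor of the distal lower jaw that is also used by sympathetic neurons, heart and limb. Hand2 (ENSMUSG00000038193, chromosome 8 from 57320983 to 57324633, plus strand) had 29.3, 29.1, 31.9, 15.6 and 23.4 CPM in p53activation replicates 1 to 5, and 13.8, 23.2, 18.3, 23.0 and 24.3 CPM in WT replicates 1 to 5. There were 3 p53activation libraries above every WT library, while p53activation replicate 4 and WT replicate 1 were low. The log2 fold change was 0.34 ± 0.20 (SE, adjusted p = 0.340). The antisense gene Hand2os1, listed as AV026068, overlaps 19.6% of the exon length of Hand2 and had 14.0 ± 5.46 CPM in p53activation and 13.8 ± 1.997 CPM in WT libraries (log2 fold change 0.01, edgeR adjusted p = 0.986). Reads in the overlap cannot be told apart without the strand.

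RNA of sympathetic and enteric neuron markers, cells that also use Hand2, was lower in p53activation libraries. These markers summed to 43.3 to 57.8 CPM in p53activation and 71.0 to 134 CPM in WT libraries over 8 genes, with no overlap. All 7 tested markers had a negative log2 fold change and 2 were called lower, where 2.74% of all tested genes were. Dbh, the enzyme that makes noradrenaline, had 0.960 ± 0.588 CPM in p53activation and 9.36 ± 1.92 CPM in WT libraries (log2 fold change -3.28 ± 0.40, edgeR adjusted p = 9.97e-05). The Dbh call held in all 22 alternatives. Heart and limb markers summed to 29.5 to 53.5 CPM in p53activation and 37.7 to 71.1 CPM in WT libraries, and 6 of 7 were negative with none called. None of these markers was at 0 in all libraries, and their part in the Hand2 values was not tested.

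Gsc encodes goosecoid, a homeodomain factor of the lower first arch and of the frontonasal region, and acts downstream of Dlx5 and Dlx6. Gsc (ENSMUSG00000021095, chromosome 12 from 104471209 to 104473330, minus strand) had 32.8, 30.7, 20.4, 19.4 and 21.5 CPM in p53activation replicates 1 to 5, and 76.4, 84.5, 27.0, 38.9 and 41.0 CPM in WT replicates 1 to 5. WT replicate 3 lay within the p53activation range and the other 4 WT libraries above it, with WT replicates 1 and 2 far above all others. The means were 25.0 ± 6.26 CPM in p53activation and 53.6 ± 25.3 CPM in WT libraries (SD, n = 5 each), which gave a log2 fold change of -1.10 ± 0.31 (SE; unadjusted p = 0.0046, edgeR adjusted p = 0.0570). Gsc was called lower in 6 of 22 alternatives, among them DESeq2 (adjusted p = 0.0209), upper quartile scaling (0.0487), total counts (0.0496) and the fit without WT replicate 3 (log2 fold change -1.26, adjusted p = 0.0130). In the authors' deposited table, which called 10.8% of genes and gave smaller log2 fold changes for every member, it was at -0.82 with an adjusted p of 0.0190. Without WT replicates 1 and 2 the log2 fold change was -0.51 ± 0.20 (edgeR adjusted p = 0.167), and with the globin ratio as a covariate it was -0.74 ± 0.23 (adjusted p = 0.0837).

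**Figure D2:**
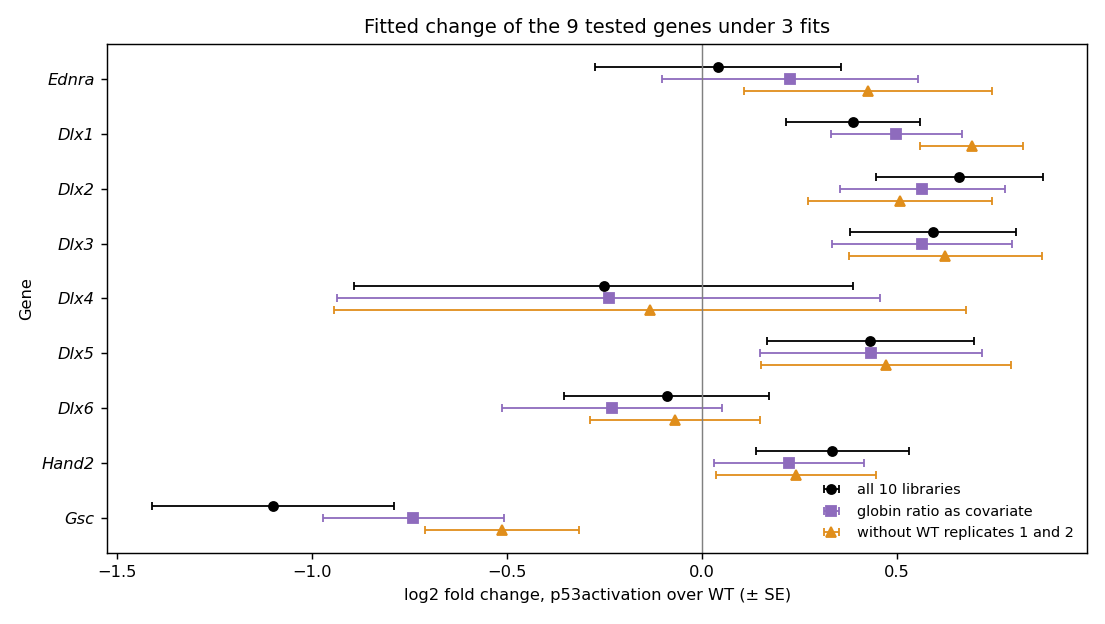
Log2 fold change of p53activation over WT (x axis, ± SE from edgeR) for the 9 tested genes (y axis), in the fit to all 10 libraries (black circles), with the globin ratio as a covariate (purple squares) and without WT replicates 1 and 2 (orange triangles). Gsc is at -1.10 with all libraries and at -0.51 without the 2 WT libraries, Dlx1 is at 0.39 and 0.69, and Dlx2, Dlx3 and Dlx5 stayed positive in all 3 fits.

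Gsc was the only one of the 9 tested genes with its highest values in WT replicates 1 and 2 and all 8 other libraries below them, a pattern that 10.3% of all tested genes had. It was shared by genes of the face that are no members. Dkk2, a WNT pathway modulator, had 339.6 and 282 CPM in WT replicates 1 and 2 against 71.1 to 97.8 CPM in the other 8 libraries. Six2 had 100.3 and 76.1 CPM against 26.2 to 52.8 CPM, and Alx1, a frontonasal homeobox gene, had 121 and 93.9 CPM against 28.2 to 54.4 CPM. Six2 and Alx1 were chosen after their values were seen. Among 15 arch mesenchyme genes 7 had this pattern, among 12 genes upstream of Edn1 4 had it, and among 14 tested distal arch genes 3. It was held by 0 of 12 proximal and dorsal arch genes, 1 of 7 transcripts beside the Dlx loci, 1 of 5 endothelin ligand, receptor and processing genes and 1 of 7 signal transduction genes. Among tested markers of other cell types, 2 of 7 sympathetic and enteric neuron genes and 2 of 8 neural tube genes had it. So did 1 of 7 heart and limb markers, 0 of 7 endothelial, 0 of 8 epithelial, 0 of 6 red blood cell and 0 of 3 macrophage markers. The globin ratio moved with these genes, and beyond the covariate fit its part in the Gsc difference was not tested.

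**Figure D3:**
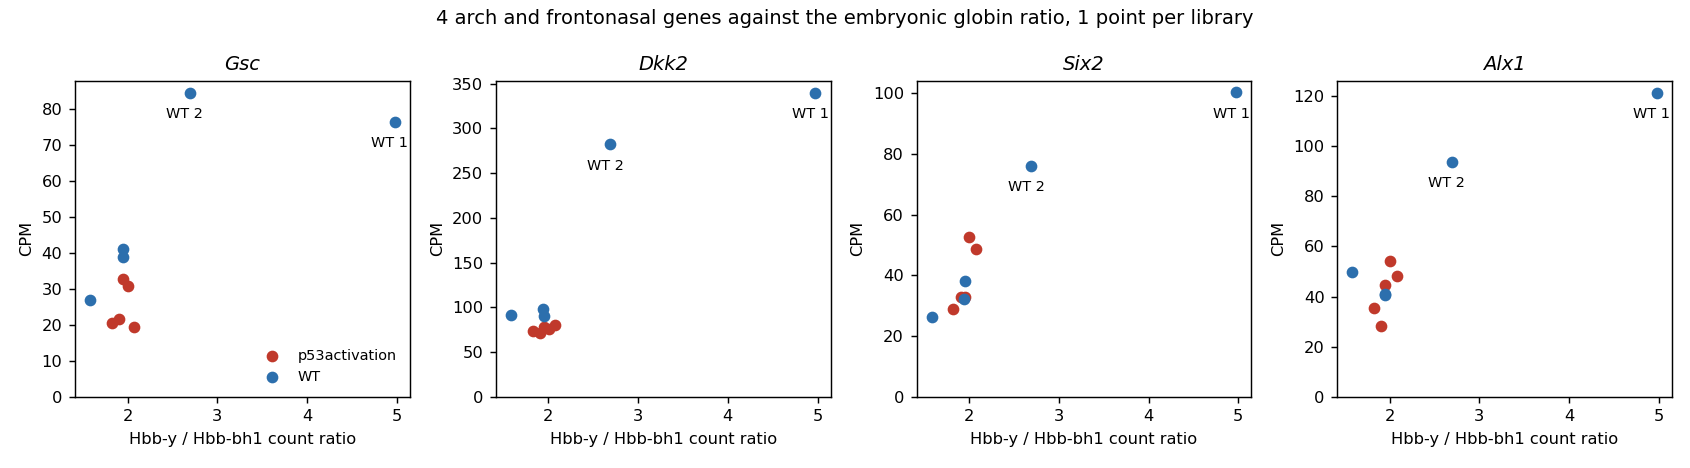
CPM (y axis, linear) of Gsc, Dkk2, Six2 and Alx1 against the count ratio of Hbb-y to Hbb-bh1 (x axis), 1 point per p53activation (red) or WT (blue) library. WT replicates 1 and 2, with ratios of 4.97 and 2.69, hold the 2 highest values in each panel, and the other 8 libraries cluster at ratios of 1.59 to 2.08.

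Levels between genes were compared per length, as RPKM, which is CPM per kilobase of exon, over all 10 libraries. Dlx6 was the highest at a mean of 47.6 RPKM, followed by Gsc at 31.0 RPKM, and Dlx6 was above Gsc in 9 of 10 libraries with overlapping ranges. By group, Dlx6 averaged 46.2 RPKM and Gsc 19.7 RPKM in p53activation libraries, against 49.1 RPKM for Dlx6 and 42.2 RPKM for Gsc in WT libraries. Hand2 (9.87 RPKM), Dlx1 (7.24 RPKM) and Dlx3 (5.77 RPKM) formed a middle tier below Gsc in every library, and neighbours within it were in order in 8 of 10 libraries each. Dlx2 (2.25 RPKM), Dlx5 (1.92 RPKM) and Ednra (1.70 RPKM) came next, and their ranges overlapped, with Dlx5 above Ednra in 5 of 10 libraries. Dlx5 averaged 2.21 RPKM and Ednra 1.71 RPKM in p53activation libraries, against 1.63 RPKM and 1.68 RPKM in WT libraries. Dlx4 (0.199 RPKM) and Edn1 (0.109 RPKM) were lowest and overlapped each other, both below Ednra in every library. Gaps with no overlap lay between Gsc and Hand2, between Dlx3 and Dlx2 and between Ednra and Dlx4.

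**Figure D4:**
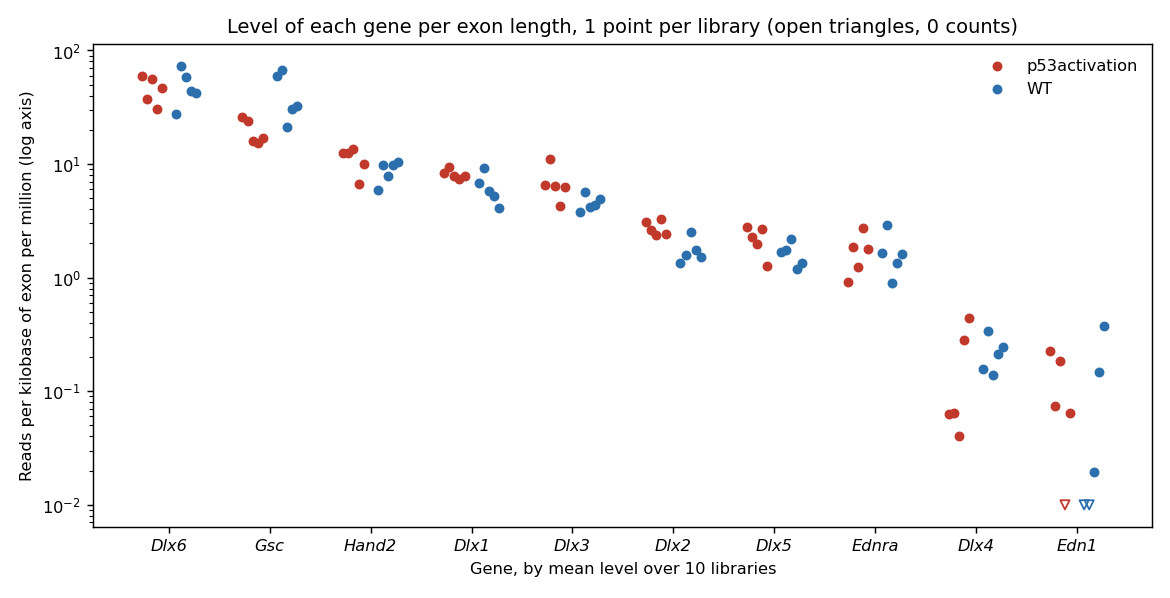
RPKM (y axis, log scale) of the 10 genes in order of their mean over 10 libraries, 1 point per library, p53activation in red left of WT in blue. Open triangles at the foot stand for libraries with 0 counts of Edn1. Dlx6 and Gsc are at the top, Dlx4 and Edn1 at the bottom, and the groups overlap for every gene.

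The balance of the Dlx code was read as log2 ratios of summed CPM within a library, with 1 CPM added to each sum. Each sum is set mostly by its higher gene, so these ratios largely follow Dlx6, Dlx1 and Dlx3. Dlx6 averaged 110 CPM in p53activation and 117 CPM in WT libraries, against 4.99 and 3.69 CPM for Dlx5. Dlx1 averaged 44.2 and 33.8 CPM, against 7.87 and 4.96 CPM for Dlx2. Dlx3 averaged 18.1 and 12.0 CPM, against 0.585 and 0.715 CPM for Dlx4. Of 8 ratios none passed adjustment over the 8 (exact two-sided permutation test of the group means, smallest possible p 0.00794). A single ratio could not pass that adjustment alone even at the smallest possible p, so a difference in 1 ratio could not be called. The ventral genes Dlx5 and Dlx6 over Dlx1 and Dlx2 gave log2 ratios of 1.44, 0.697, 1.45, 0.666 and 1.19 in p53activation replicates 1 to 5, and 0.746, 1.68, 1.88, 1.65 and 1.92 in WT replicates 1 to 5. All WT libraries but replicate 1 lay above every p53activation library. The means were 1.09 ± 0.39 in p53activation and 1.58 ± 0.48 in WT libraries (SD, n = 5 each; difference -0.49, exact permutation p = 0.111, adjusted p = 0.296). Without WT replicates 1 and 2 the difference was -0.73 (exact permutation p = 0.0357, adjusted p = 0.286, smallest possible p 0.0179).

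Gsc over Dlx5 and Dlx6 had a mean log2 ratio of -2.15 ± 0.41 in p53activation and -1.21 ± 0.90 in WT libraries (exact permutation p = 0.0635, adjusted p = 0.296, n = 5 each). That difference of -0.94 was -0.44 without WT replicates 1 and 2. Dlx3 and Dlx4 over Dlx5 and Dlx6 differed by 0.52 (adjusted p = 0.296) and Hand2 over Dlx5 and Dlx6 by 0.34 (adjusted p = 0.368), p53activation minus WT. Within pairs, the log2 ratio of Dlx3 over Dlx4 was even in WT libraries, at 2.84 to 3.04, and ran from 2.66 to 4.63 in p53activation libraries (difference 0.68, adjusted p = 0.333). Dlx5 over Dlx6 differed by 0.39 (adjusted p = 0.381), Dlx1 over Dlx2 by -0.17 (adjusted p = 0.617) and Ednra over Ednrb by 0.15 (adjusted p = 0.706).

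**Figure D5:**
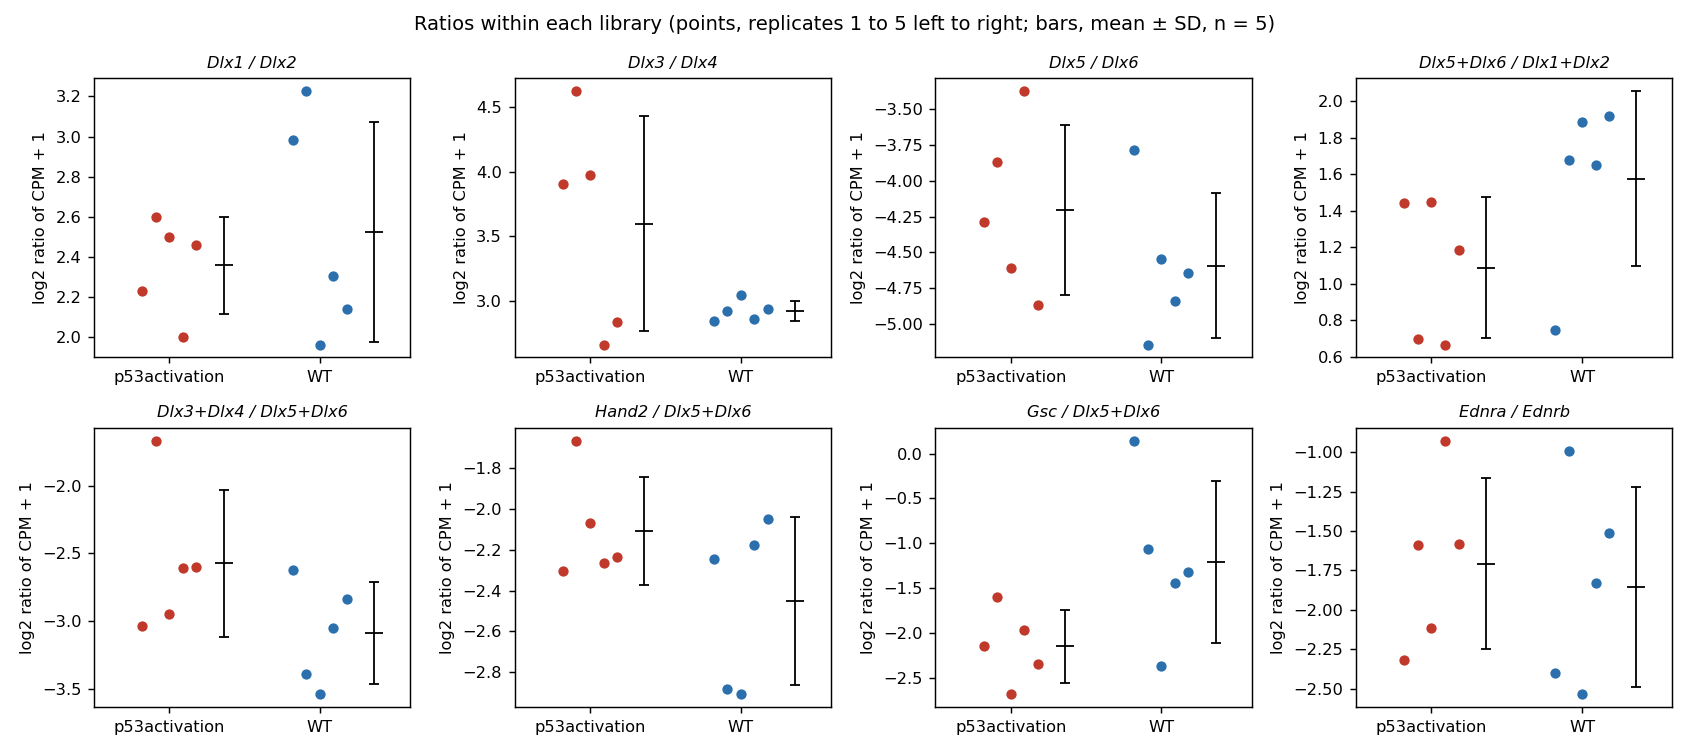
The 8 log2 ratios of CPM sums (y axis, its own scale in each panel) in p53activation (red) and WT (blue) libraries, with replicates 1 to 5 from left to right and the mean ± SD of 5 libraries as bars. The groups overlap in every panel. For Dlx5 and Dlx6 over Dlx1 and Dlx2, WT replicate 1 at 0.746 is apart from the other 4 WT libraries.

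Neighbouring Dlx genes did not detectably vary together among embryos of a genotype. With the group means removed, Pearson's r of log2 CPM over 10 libraries was -0.14 for Dlx1 and Dlx2 (Spearman's rho -0.27), -0.30 for Dlx3 and Dlx4 (rho -0.24) and 0.07 for Dlx5 and Dlx6 (rho 0.28). The permutation p was 0.752, 0.610 and 0.841 for r, and 0.499, 0.584 and 0.455 for rho. The values adjusted over the 3 pairs were 0.841 each for r and 0.584 each for rho. Without the 2 libraries in which the first gene lay farthest from its group mean, r was -0.43, 0.31 and -0.03. Over all 36 pairs of the 9 tested genes r was positive for 17, with a median of -0.01, and the highest values were 0.72 for Dlx1 and Gsc, 0.71 for Dlx3 and Hand2 and 0.67 for Dlx6 and Hand2. All these values come from the same 10 libraries and are a description.

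The genes with the most similar pattern to each of the 9 genes, among 14527 others, were read by the same r over 10 libraries. Among the 2 nearest to each were Chd1l and Col11a1 for Ednra (0.97 and 0.97), Dgke and 9430038I01Rik for Dlx1 (0.94 and 0.93), and R3hcc1l for Dlx2 (0.92). Lcmt2 and Dnttip1 were nearest to Dlx3 (0.94 and 0.94), Ncoa1 and Ankhd1 to Dlx4 (0.99 and 0.98) and Fam65b and Eml5 to Dlx5 (0.97 and 0.93). Dlx6 was nearest to Ubxn2b and Gm42783 (0.95 each), Hand2 to Ubac1 and Bola3 (0.96 each), and Gsc to L3hypdh and Ldb2 (0.96 and 0.95). No member was among the nearest genes of another. Each r was picked as one of the highest of 14527 over only 10 libraries, so a high value is likely from the picking alone. They were not tested, and Dlx4 is close to the detection limit.

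Other genes of the endothelin pathway gave no call. Of 5 tested ligand, receptor and processing genes, with Edn2 at 0 counts in all libraries, 3 were positive and the median log2 fold change was 0.06. The endothelin converting enzyme gene Ece1 had 24.1 ± 3.38 CPM in p53activation and 19.7 ± 1.62 CPM in WT libraries (log2 fold change 0.29, edgeR adjusted p = 0.201). The ligand gene Edn3 had a log2 fold change of -0.43 (adjusted p = 0.254), and of -0.15 without WT replicates 1 and 2. Of 7 signal transduction genes, which include the Gq family genes Gnaq and Gna11 and the factor gene Mef2c, none was called and the median was 0.03. The phospholipase C gene Plcb3 had a log2 fold change of 0.29 (adjusted p = 0.163), Plcb1 of -0.83 (adjusted p = 0.224) and Plcb4 of 0.40 (adjusted p = 0.340). Without WT replicates 1 and 2 Plcb1 was at -0.36 and the median of the 7 genes was -0.09.

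Of 12 genes that act upstream of Edn1 or signal from the arch epithelium, 11 had a negative log2 fold change, with a median of -0.21. In this list 1 gene was called lower, where 2.74% of all tested genes were. Isl1, a LIM homeobox gene of arch epithelium that sensory and sympathetic neurons also use, fell to 11.4 ± 4.03 CPM in p53activation, against 25.2 ± 3.30 CPM in WT libraries (log2 fold change -1.13 ± 0.21, edgeR adjusted p = 0.00356). Its groups did not overlap and the call held in all 22 alternatives. The neuron and epithelium marker sums given above moved in the same direction, and their part was not tested. The signal genes Fgf9 (log2 fold change -0.70, adjusted p = 0.255) and Bmp2 (-1.01, adjusted p = 0.265) were next. Without WT replicates 1 and 2 Bmp2 was at -0.41, and the list had 4 positive and 8 negative members with a median of -0.18. Isl1 was its 1 call in that fit, which called 4.36% of all genes.

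Distal arch genes other than the members held no call among 14 tested, with 10 positive and a median of 0.12. Sfrp2, a secreted WNT modulator, had 11.5 ± 2.05 CPM in p53activation and 7.68 ± 1.89 CPM in WT libraries with no overlap (log2 fold change 0.58, edgeR adjusted p = 0.0928). WT replicates 1 and 2 were its lowest libraries, at 5.06 and 6.37 CPM, and without them its log2 fold change was 0.35 (edgeR adjusted p = 0.330). Dkk2 was the second without overlap, at -1.25 (adjusted p = 0.123), and -0.30 without WT replicates 1 and 2. Over all tested genes 8.07% had no overlap between the groups. In the fit without those 2 libraries Alx4 was called higher, where 3.07% of all genes were.

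Of 12 tested proximal and dorsal arch genes 1 was called higher, where 4.49% of all tested genes were. In that list 8 genes were negative, with a median of -0.08. Jag2, a NOTCH ligand gene, rose to 5.21 ± 2.26 CPM in p53activation, against 2.25 ± 0.669 CPM in WT libraries (log2 fold change 1.22 ± 0.33, edgeR adjusted p = 0.0356). The call was lost without p53activation replicate 3, 4 or 5, without WT replicate 2, 3 or 4 (adjusted p up to 0.0929) and without WT replicates 1 and 2 together (0.103). Its paralog Jag1 had a log2 fold change of 0.36 (adjusted p = 0.0947), and Meis1 of -0.22 (adjusted p = 0.291).

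Among 15 arch mesenchyme genes Prrx2, a homeobox gene of facial and limb mesenchyme, was the 1 call, where 2.74% of all tested genes were called lower. It fell to 82.4 ± 7.57 CPM in p53activation, against 109.6 ± 18.9 CPM in WT libraries with no overlap (log2 fold change -0.41 ± 0.11, edgeR adjusted p = 0.0386). The call was lost without any of p53activation replicates 2 to 5 or WT replicates 1 to 3 (adjusted p up to 0.106). It was also lost without WT replicates 1 and 2 together (log2 fold change -0.23, adjusted p = 0.196) and with the globin ratio as a covariate (-0.31, adjusted p = 0.0570). Osr2 had a log2 fold change of -1.97 (adjusted p = 0.0997), which was -0.54 without WT replicates 1 and 2, and Lhx6, a LIM homeobox gene of oral first arch mesenchyme, had 0.51 (adjusted p = 0.155). The list had 9 negative members and a median of -0.10, and without the 2 WT libraries 9 positive members and a median of 0.07. In that fit Lhx8 was called higher, where 3.07% of all genes were.

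Transcripts beside the Dlx loci also held no call among 7 tested, with a median of 0.17. Kat7, near Dlx3 and Dlx4, had a log2 fold change of 0.36 (edgeR adjusted p = 0.132), Dlx6os1 had 0.28 and Sdhaf3 -0.23 (adjusted p = 0.591). Metap1d, the gene next to Dlx1, had 48.1 ± 7.56 CPM in p53activation and 50.4 ± 16.6 CPM in WT libraries (adjusted p = 0.875).

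Markers of the remaining cell types did not separate the groups. Endothelial markers summed to 28.2 to 50.3 CPM in p53activation and 16.8 to 63.0 CPM in WT libraries. Neural tube and forebrain markers, which cover cells that use Dlx1, Dlx2, Dlx5 and Dlx6 later in development, summed to 53.6 to 89.3 CPM in p53activation and 49.1 to 88.2 CPM in WT libraries. Within that list the interneuron gene Gad2 had a log2 fold change of -1.90 (edgeR adjusted p = 0.0794) and Otx2 of 0.38 (adjusted p = 0.199). Gad2 was low, at 0.206 to 1.68 CPM in p53activation and 1.28 to 7.85 CPM in WT libraries. Its values in WT replicates 1 and 2 were above all 8 other libraries. The median log2 fold change of the list was -0.09, and -0.36 without WT replicates 1 and 2. Red blood cell markers ran from 493 to 5935 CPM in p53activation and from 817 to 4427 CPM in WT libraries, and macrophage markers from 8.44 to 23.8 CPM in p53activation and from 8.02 to 34.7 CPM in WT libraries. No marker of any list was at 0 in all libraries, and the part of these cells in the values of the members was not tested.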

How the data were processed

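RNA was sequenced from sorted GFP-positive cells, 1 library per embryo, with 5 embryos in each of the 2 genotypes. What the authors deposited is a table of raw read counts, 1 row per Ensembl gene and 1 column for each of the 10 libraries. Per the submitters' processing notes, the tools included HTSeq 0.6.1, HISAT2 2.0.4, DESeq2 1.14.1 and SAMtools 1.3.1, and the build was GRCm38, and libraries were made with a TruSeq kit, per the labels' protocols. No source used here gives the annotation release, the strand setting or the treatment of multiply aligned reads. A second table is the authors' own comparison, with a mean normalized count (a signal), a log2 fold change with its error, a test score, a p-value and an adjusted p-value per gene, per the file headers.

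Counts were used as deposited, with columns assigned to samples through the numbers in the labels' descriptions. The edgeR function filterByExpr (minimum count 10, minimum total 15) kept 14528 of 49671 genes. After TMM scaling, genes were tested by quasi-likelihood F-test in edgeR 4.0.16 (R 4.3.3), with robust dispersions and no covariate. Benjamini-Hochberg adjustment of p ran over all tested genes, with a threshold of 0.05, and an adjusted p of a gene comes from this edgeR fit where no other source is stated. The common biological coefficient of variation was 25.5%. The standard error is the log2 fold change over the square root of F. CPM use the totals of tested genes times the TMM factor. RPKM divide CPM by the GENCODE M21 exon length in kilobases, and 49326 (99.3%) of the identifiers were found there. The script was tested on simulated counts, where it recovered 25.4% of 1.5-fold, 64.2% of 2-fold and 100% of 4-fold changes. Changes were placed only in genes with a WT mean above 2 CPM, so these shares do not cover lower genes such as Dlx4. A gene without a call is therefore not shown to be unchanged.

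The members, gene lists and tests were chosen with earlier results of these data known. All 10 members are named. Of each list the called genes and up to 3 with the smallest p are named, with the genes beside the members and the 2 genes most alike in pattern. A few genes that this rule names are not reported here, though they count in the tallies. Others, such as Six2, Alx1, Alx4, Lhx8 and Mef2c, were named after their values were seen. Of 11 transcripts listed beside the Dlx loci, 8 symbols were in the table, and Tac4 was at 0 in all libraries. The alternatives were other scalings and filters, limma-voom (limma 3.58.1), DESeq2 1.42.0, non-robust dispersions, the replicate number as a block, the log2 globin ratio as a covariate, and fits without single libraries or pairs of libraries. The labels do not say whether replicate numbers pair embryos. Correlations used log2 CPM with a prior count of 2 and 100000 permutations within genotypes.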

Additional observations from a re-analysis of the deposited data

Results flagged for a closer look

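The log2 ratio of Dlx5 and Dlx6 over Dlx1 and Dlx2 was flagged because WT replicate 1, at 0.746, lay far from the other 4 WT libraries, at 1.65 to 1.92. Its gap to the nearest of them was 0.77 of the range of the WT group, above the critical value of 0.71 for 5 samples. Of 36 groups of 5 libraries tested in this way it was the sole one, and chance flags about 1 in 20. Without WT replicates 1 and 2 the difference between p53activation and WT was -0.73, against -0.49 with all libraries. Neither passed the adjusted exact permutation test (adjusted p = 0.286 and 0.296), which a single ratio could not pass alone even at the smallest possible p.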

How the results depend on the processing

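With all 10 libraries 1050 genes were called, with DESeq2 1622 and without WT replicates 1 and 2 656. Leaving out each library in turn gave 636 to 1025. Members called numbered 0 higher and 0 lower, with 0 to 1 higher and 0 to 1 lower when single libraries were left out. One member, Gsc, was called lower (count 1) with upper quartile scaling, total counts, non-robust dispersions, DESeq2 and the replicate block. 1 was called higher with DESeq2 (Dlx2), without WT replicates 1 and 2 (Dlx1) and without p53activation replicates 4 and 5 (Dlx3, adjusted p = 0.0346). Genes of the 7 context lists called numbered 1 higher and 2 lower, where 4.49% and 2.74% of all tested genes were called. The higher count was 0 with limma-voom, the replicate block or without p53activation replicates 4 and 5, 2 without WT replicates 1 and 2, and 0 to 1 without single libraries. The lower count was 1 with limma-voom, the globin covariate or without either pair of libraries, 3 with non-robust dispersions, 4 with DESeq2, and 1 to 2 without single libraries.

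Whether replicate numbers pair embryos is not known from the labels. The correlation of same-numbered deviations ran from -0.053 to 0.113, and that of differently numbered ones from -0.134 to 0.128. Such values cannot tell whether embryos were paired. The replicate block gave 804 calls and Gsc at -1.01 (adjusted p = 0.00146).

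Signs turned for Ednra (-0.295 without p53activation replicates 4 and 5, -0.20 to 0.33 without single libraries), Dlx6 (0.0685 and -0.24 to 0.10) and Dlx4 (-0.82 to 0.0056). The ratio of Dlx1 over Dlx2 was 0.22 without WT replicates 1 and 2 and -0.31 to 0.0095 without single libraries, and Ednra over Ednrb was -0.15 without p53activation replicates 4 and 5 and -0.048 to 0.36. The correlation of Dlx1 and Dlx2 was 0.489 without WT replicates 1 and 2. Without the 2 libraries farthest from the group mean of the first gene, that of Dlx3 and Dlx4 was 0.31 and that of Dlx5 and Dlx6 -0.033. The cause was not tested. Low counts limit Edn1 and Dlx4.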
